A study of Mus musculus with 27 samples.

Results

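Tubulin isotypes are the closely related proteins, each from a gene of its own, from which microtubules are built. The genes examined here were the alpha-tubulins Tuba1a, Tuba1b and Tuba4a, the beta-tubulins Tubb2a, Tubb2b, Tubb3, Tubb4a, Tubb5 and Tubb6, and the gamma-tubulin Tubg1. Members were taken as the probe sets of the array that the annotation assigns to exactly 1 of these 10 genes. This gave 14 probe sets of 9 genes, out of 45101 probe sets on the array, and all 14 passed the filter on low signal, as did 30107 in all. Tuba1b had no probe set of its own, because its only probe set is shared with another gene, so it has no value here.

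Gene expression was measured on 27 Affymetrix arrays with total RNA from the mouse cerebellum. SmoM2 is a constitutively active Smoothened, the protein that passes on the Hedgehog signal, and cre recombinase turns it on in the cells where its driver acts. SmoM2 tumours came from 3 Math1-cre:SmoM2 samples, 3 samples of Tlx3-cre:SmoM2, 7 of Olig2-tva-cre:SmoM2 and 6 of hGFAP-cre:SmoM2 mice. Tumours of Ptc1+/- mice, which lack 1 working copy of the Hedgehog receptor gene Ptch1, made up 2 arrays. The control group was non-tumour cerebellum on 6 arrays: replicates 1 and 2 from Olig2-tva-cre:SmoM2 mice, 3 from hGFAP-cre:SmoM2 mice, 4 and 5 from mice with Mxi1-cre:SmoM2, and 6 of the Ptc1+/- genotype. The tissue without tumour thus also came from mice that carry SmoM2 or the Ptc1 mutation, and the age of the mice is not given in the sources used here. Math1-cre and Tlx3-cre act in the granule neuron lineage, while Olig2-tva-cre and hGFAP-cre act in broader sets of progenitors. The tumours are called biological replicates without animals being named, so a p-value here reflects only how much these samples vary, which may be technical, and the number of arrays limits the precision. The question named by the series title is how tumours of the Hedgehog type relate to the identity of granule neuron precursors.

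Alpha- and beta-tubulin pair into dimers, dimers assemble end to end into microtubules, and gamma-tubulin forms the ring from which a new microtubule starts. Dividing cells use microtubules for the mitotic spindle, and neurons use them for migration, axon growth and transport. The isotypes differ mostly in their carboxy-terminal tails, and their mix changes as neurons mature: Tuba1a, Tubb2b, Tubb3 and Tubb5 are the isotypes known from the developing brain, while Tuba4a and Tubb4a are known from the mature brain. Granule neuron precursors divide at the surface of the young cerebellum in response to Sonic hedgehog and then leave the cycle, migrate inward and differentiate.

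The promoters of a pair of isotypes with higher signal and a pair with lower signal in tumours are shown first, since the members moved in opposite directions. Of the 10 genes, 7 had a promoter in the RefSeq table (build GRCm38.p6), and Tubb2b, Tubb6 and Tubg1 did not. Each sequence is the 250 bases before the annotated start of the gene, read 5′ to 3′ on the strand of the gene, and capitals mark CCAAT or its reverse complement ATTGG. Tubb5 is on the minus strand at chr17:35838302-35838551 and Tubb3 on the plus strand at chr8:123411303-123411552, followed by Tuba4a on the minus strand at chr1:75219295-75219544 and Tubb4a on the minus strand at chr17:57087601-57087850.
Tubb5: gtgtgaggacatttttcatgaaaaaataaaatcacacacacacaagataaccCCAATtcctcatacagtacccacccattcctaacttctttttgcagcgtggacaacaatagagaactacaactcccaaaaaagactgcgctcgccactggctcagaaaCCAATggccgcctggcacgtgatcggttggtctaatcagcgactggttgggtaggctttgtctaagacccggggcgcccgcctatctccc
Tubb3: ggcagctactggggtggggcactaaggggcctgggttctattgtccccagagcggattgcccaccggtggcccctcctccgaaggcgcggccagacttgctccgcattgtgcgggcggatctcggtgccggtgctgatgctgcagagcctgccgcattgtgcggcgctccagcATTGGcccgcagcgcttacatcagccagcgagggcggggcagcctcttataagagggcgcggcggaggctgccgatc
Tuba4a: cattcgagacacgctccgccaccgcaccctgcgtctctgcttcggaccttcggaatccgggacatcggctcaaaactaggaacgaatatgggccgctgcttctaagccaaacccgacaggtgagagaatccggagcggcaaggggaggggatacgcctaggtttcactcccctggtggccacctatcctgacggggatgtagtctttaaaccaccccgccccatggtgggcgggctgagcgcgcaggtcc
Tubb4a: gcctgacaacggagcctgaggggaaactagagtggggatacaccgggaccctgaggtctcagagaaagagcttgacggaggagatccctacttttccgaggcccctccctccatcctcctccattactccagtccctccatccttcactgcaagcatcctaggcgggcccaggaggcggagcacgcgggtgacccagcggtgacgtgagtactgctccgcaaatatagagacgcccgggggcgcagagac

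The letters CCAAT, on either strand, occurred 2 times in the Tubb5 promoter, 1 time each in those of Tubb3 and Tuba1a, and not in those of Tuba4a, Tubb4a, Tubb2a or Tuba1b. Of all 32851 promoters in the table, 33.8% hold this motif in a window of the same length. The GC box, searched as GGGCGG on both strands, was found 2 times each in Tubb3, Tuba4a, Tubb2a and Tuba1b, 1 time in Tuba1a and not in Tubb5 or Tubb4a, against 32.7% of all promoters. The E-box, searched as CANNTG, occurred 1 time each in Tubb5, Tuba1a, Tuba4a, Tubb2a and Tuba1b and not in Tubb3 or Tubb4a, and 66.2% of all promoters hold it. The letters GACCACCCA, a form of the site bound by Gli factors, were in none of the 7 promoters and in 0.225% of all. Matches of different motifs were counted separately and may share bases, and a match is a description of the letters only.

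The arrays differed in brightness. Their trimmed mean signals ran from 42.6 to 206, so each array was rescaled to a common level, and all values below are log2 of the rescaled signal unless said otherwise. The 7 dimmest arrays were Olig2 replicates 3 to 7, hGFAP replicate 4 and Ptc1+/- replicate 2. RNA integrity also differed, since the log2 ratio of the 3′ over the 5′ control probe sets of Gapdh and Actb was between 1.67 and 1.88 on 5 arrays (Olig2 replicates 3 and 4, hGFAP replicates 4 and 6, control replicate 1) and at most 0.9 on the others. The mean of the 5 granule neuron precursor markers lay between 10.73 and 11.42 on the tumour arrays and between 7.6 and 8.83 on the control arrays. Insm1, Atoh1 and Barhl1 were called higher in tumours. Zic1 (mean 12.74 in tumours, 12.47 in controls) and Neurod1 (11.84 and 12.31) were not called. Without rescaling, the median of all probe sets moved to -0.32 in all tumours against tissue without tumour.

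Tumours held more signal of the isotypes of dividing and developing neural cells and less of the isotypes of the mature brain. With the probe set of highest mean signal for each gene, Tubb5, Tubb2b, Tubb3, Tuba1a and Tubg1 were higher in tumours and Tuba4a and Tubb4a were lower, while Tubb6 and Tubb2a were not called (limma, adjusted p under 0.05, mean of the 5 tumour groups against tissue without tumour). That is 7 of 9 genes called, where 51.4% of all 13527 genes were called in the same comparison, 26.4% higher and 25% lower. The median log2 difference of the 9 genes was 0.64, against 0.02 over all genes. In tissue of many cell types, a change in the number of cells of a type and a change of RNA per cell cannot be told apart.

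Among the alpha-tubulins, Tuba1a is the main isotype of newborn neurons. Its log2 signal was 13.33, 13.03 and 13.37 in Math1 tumours, 13.25, 13.06 and 13.27 in Tlx3 tumours, 12.92 to 13.96 (median 13.83) in Olig2 tumours, 12.65 to 13.83 (median 13.54) in hGFAP tumours and 13.37 and 13.87 in Ptc1+/- tumours, against 11.88 to 12.61 (median 12.29) in tissue without tumour. The groups did not overlap, with each of the 21 tumour arrays above the 6 controls, which held for 8.14% of all genes. Over the tumour groups Tuba1a was 1.17 higher on the log2 scale, or 2.26-fold (SE 0.17, limma adjusted p = 1.07e-06). Its probe set carries a suffix that Affymetrix gives to probes that may also bind other sequences, and alpha-tubulin genes are near-identical, so the signal may hold other alpha-tubulins. The Tuba1a signal was also near the top of the scale, with 13266 to 14306 as deposited in Tlx3 tumours, where the brightest probe set of an array reached 14306 to 14769, which leaves little room above it. The 7 dimmest arrays, all of tumours, had the highest rescaled Tuba1a signals, at 13.78 to 13.96, and the other arrays reached at most 13.69. Over 45 alternatives the rise ran from 0.68, with quantile normalization, to 1.28, and no call was lost. The part of rescaling in the size of the rise was not tested.

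Tuba4a, the alpha-tubulin of mature neurons, showed the largest difference of the members. Its log2 signal was 8.06, 8.01 and 7.62 in Math1 tumours, 8.34, 8.82 and 8.38 in Tlx3 tumours, 7.26 to 9.19 (median 7.61) in Olig2 tumours, 8.33 to 9.29 (median 8.79) in hGFAP tumours and 7.29 and 7.78 in Ptc1+/- tumours, against 11.09 to 12.06 (median 11.74) in tissue without tumour. The groups did not overlap, since the highest tumour array stood at 9.29 and the lowest control array at 11.09. All 21 tumour arrays lay below every control array, which held for 9.68% of all genes. Tuba4a fell by 3.54 on the log2 scale, or 11.6-fold (SE 0.23, adjusted p = 2.21e-13). Its other probe sets also gave lower signal in tumours, by 2.43 (log2 difference -2.43, adjusted p = 6.73e-11) and by 1.70 (log2 difference -1.70, adjusted p = 9.94e-05), the last at signals near the floor.

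Tubb5, the beta-tubulin of most dividing cells, had the largest rise. Its log2 signal was 12.75, 12.74 and 12.69 in Math1 tumours, 12.51, 12.53 and 12.55 in Tlx3 tumours, 12.27 to 13.77 (median 12.71) in Olig2 tumours, 12.08 to 12.87 (median 12.62) in hGFAP tumours and 12.54 and 13.60 in Ptc1+/- tumours, against 9.91 to 10.88 (median 10.60) in tissue without tumour. The 3 Math1 and the 3 Tlx3 arrays were nearly level, and the lowest of the 21 tumour arrays exceeded the highest control. Such a full separation upward held for 8.14% of all genes. Tubb5 rose by 2.26 on the log2 scale, or 4.78-fold (SE 0.20, adjusted p = 1.07e-10). Its other probe set was 2.01 higher (SE 0.40, adjusted p = 0.000139) with a much wider spread: Olig2 replicates 1 to 7 stood at 9.59, 9.16, 9.01, 8.68, 11.70, 11.80 and 11.62, and tissue without tumour at 7.35 to 8.39. Olig2 replicates 5 to 7 were high on both probe sets, at 13.57, 13.77 and 13.33 on the first. These 3 arrays were dim, with trimmed means of 75.5, 77.9 and 42.6, and had the lowest 3′ over 5′ ratios, at -0.15, -0.13 and -0.12. Ptc1+/- replicate 2, dim as well, had a trimmed mean of 47.3 and a ratio of 0.07. Its Tubb5 signals were 13.60 on the first probe set and 11.35 on the other. Olig2 replicates 3 and 4, also dim, had ratios of 1.72 and 1.78 and Tubb5 signals of 12.43 and 12.37 on the first probe set, and the part of RNA integrity in these differences was not tested.

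Tubb2b, an isotype of migrating and newly formed neurons, had a log2 signal of 10.75, 10.84 and 11.12 in Math1 tumours, 11.17, 10.72 and 10.94 in Tlx3 tumours, 10.89 to 12.33 (median 11.40) in Olig2 tumours, 10.72 to 12.09 (median 11.40) in hGFAP tumours and 10.72 and 11.06 in Ptc1+/- tumours, against 8.42 to 9.47 (median 9.17) in tissue without tumour. There was again no overlap, the lowest tumour array standing at 10.72 and the highest control at 9.47, as for 8.14% of all genes. Tubb2b rose by 2.06 on the log2 scale, or 4.17-fold (SE 0.20, adjusted p = 1.19e-09). The highest arrays were Olig2 replicate 4 at 12.33 and hGFAP replicate 4 at 12.09, both of the 5 arrays with a high 3′ over 5′ ratio.

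Tubb3, the beta-tubulin widely used as a mark of neurons, had a log2 signal of 8.65, 9.22 and 9.23 in Math1 tumours, 9.55, 9.89 and 8.85 in Tlx3 tumours, 8.67 to 10.69 (median 9.41) in Olig2 tumours, 8.39 to 9.23 (median 9.03) in hGFAP tumours and 8.30 and 10.77 in Ptc1+/- tumours, against 6.89 to 8.39 (median 7.69) in tissue without tumour. Of the 21 tumour arrays 20 exceeded the controls, and the first Ptc1+/- array lay within them. Tubb3 rose by 1.70 on the log2 scale, or 3.24-fold (SE 0.29, adjusted p = 1.80e-05). Olig2 replicates 5 to 7 were the highest of their group here too, at 10.22, 10.69 and 10.34. They and Ptc1+/- replicate 2, at 10.77, were the highest of all arrays and are among the 7 dimmest. The rest of the dimmest, Olig2 replicates 3 and 4 and hGFAP replicate 4, stood at 8.67, 8.98 and 8.39. The part of brightness and RNA integrity in the size of the rise was not tested.

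Tubb4a is a beta-tubulin of the mature brain, abundant in neurons and in oligodendrocytes, and in humans its mutations cause a disease of myelin. Its log2 signal was 9, 9.65 and 9.71 in Math1 tumours, 9.54, 9.69 and 9.36 in Tlx3 tumours, 8.53 to 9.86 (median 9.51) in Olig2 tumours, 8.76 to 10.02 (median 9.28) in hGFAP tumours and 7.66 and 9.23 in Ptc1+/- tumours, against 11.05 to 11.51 (median 11.34) in tissue without tumour. The control arrays were close together (SD 0.17, n = 6), and all 21 tumour arrays lay below every one of them. A full separation downward held for 9.68% of all genes. Tubb4a fell by 2.07 on the log2 scale, or 4.19-fold (SE 0.21, adjusted p = 1.98e-09).

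Tubb2a, a beta-tubulin of neurons whose protein is nearly the same as that of Tubb2b, was not called on its brighter probe set. There 5 of the 21 tumour arrays lay above all controls and 1 lay below all of them. Its log2 signal averaged 10.46 ± 0.51 (SD, n = 21) in tumours and 10.14 ± 0.46 (SD, n = 6) in tissue without tumour. The difference over the tumour groups was 0.23 (95% interval -0.17 to 0.62, adjusted p = 0.363), and it was -0.12 without rescaling of the arrays. The lowest array was the first Ptc1+/- tumour at 8.78, with the second at 10.33. A second probe set of Tubb2a, with lower signal, was called 0.62 higher (SE 0.23, adjusted p = 0.0267), so the call rests on the probe set while the direction is the same. The first probe set carries a suffix for probes shared between transcripts, and near-identical beta-tubulin genes can share its signal.

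Tubb6, a beta-tubulin of low level in brain, gave different calls with its 2 probe sets. On the probe set of higher mean its log2 signal averaged 5.67 ± 0.69 (SD, n = 21) in tumours and 4.97 ± 0.44 (SD, n = 6) in tissue without tumour. The difference over the tumour groups, each with equal weight, was 0.64 (SE 0.32, adjusted p = 0.0969). On the other probe set the log2 signal of Tubb6 was 3.50 to 7.31 (median 6.04) in tumours. Among controls replicate 2 stood there at 4.05 and the other 5 at the floor of 3.37. That probe set was called higher in tumours (log2 difference 2.19, adjusted p = 1.03e-05), a size that depends on where the floor is set. The first probe set was called too when hGFAP replicate 2, at 3.53 the lowest of all arrays, was left out (0.73, adjusted p = 0.00956).

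Tubg1, the gamma-tubulin that starts microtubules at the centrosome, had a log2 signal of 7.81, 8.03 and 7.64 in Math1 tumours, 7.84, 8.14 and 7.78 in Tlx3 tumours, 7.75 to 8.61 (median 7.97) in Olig2 tumours, 6.79 to 8.02 (median 7.61) in hGFAP tumours and 8.15 and 8.69 in Ptc1+/- tumours, against 7.08 to 7.75 (median 7.46) in tissue without tumour. Of the 21 tumour arrays 16 exceeded the controls and 2 hGFAP arrays lay below all of them. Tubg1 was 0.48 higher on the log2 scale, or 1.40-fold (SE 0.18, adjusted p = 0.0265). This call was lost without control replicate 3 (0.40, adjusted p = 0.0877), control replicate 5 (0.45, adjusted p = 0.0622) or Ptc1+/- replicate 2 (0.43, adjusted p = 0.0596), with array medians set equal (0.48, adjusted p = 0.0572) and without rescaling (0.13, adjusted p = 0.746).

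**Figure D1:**
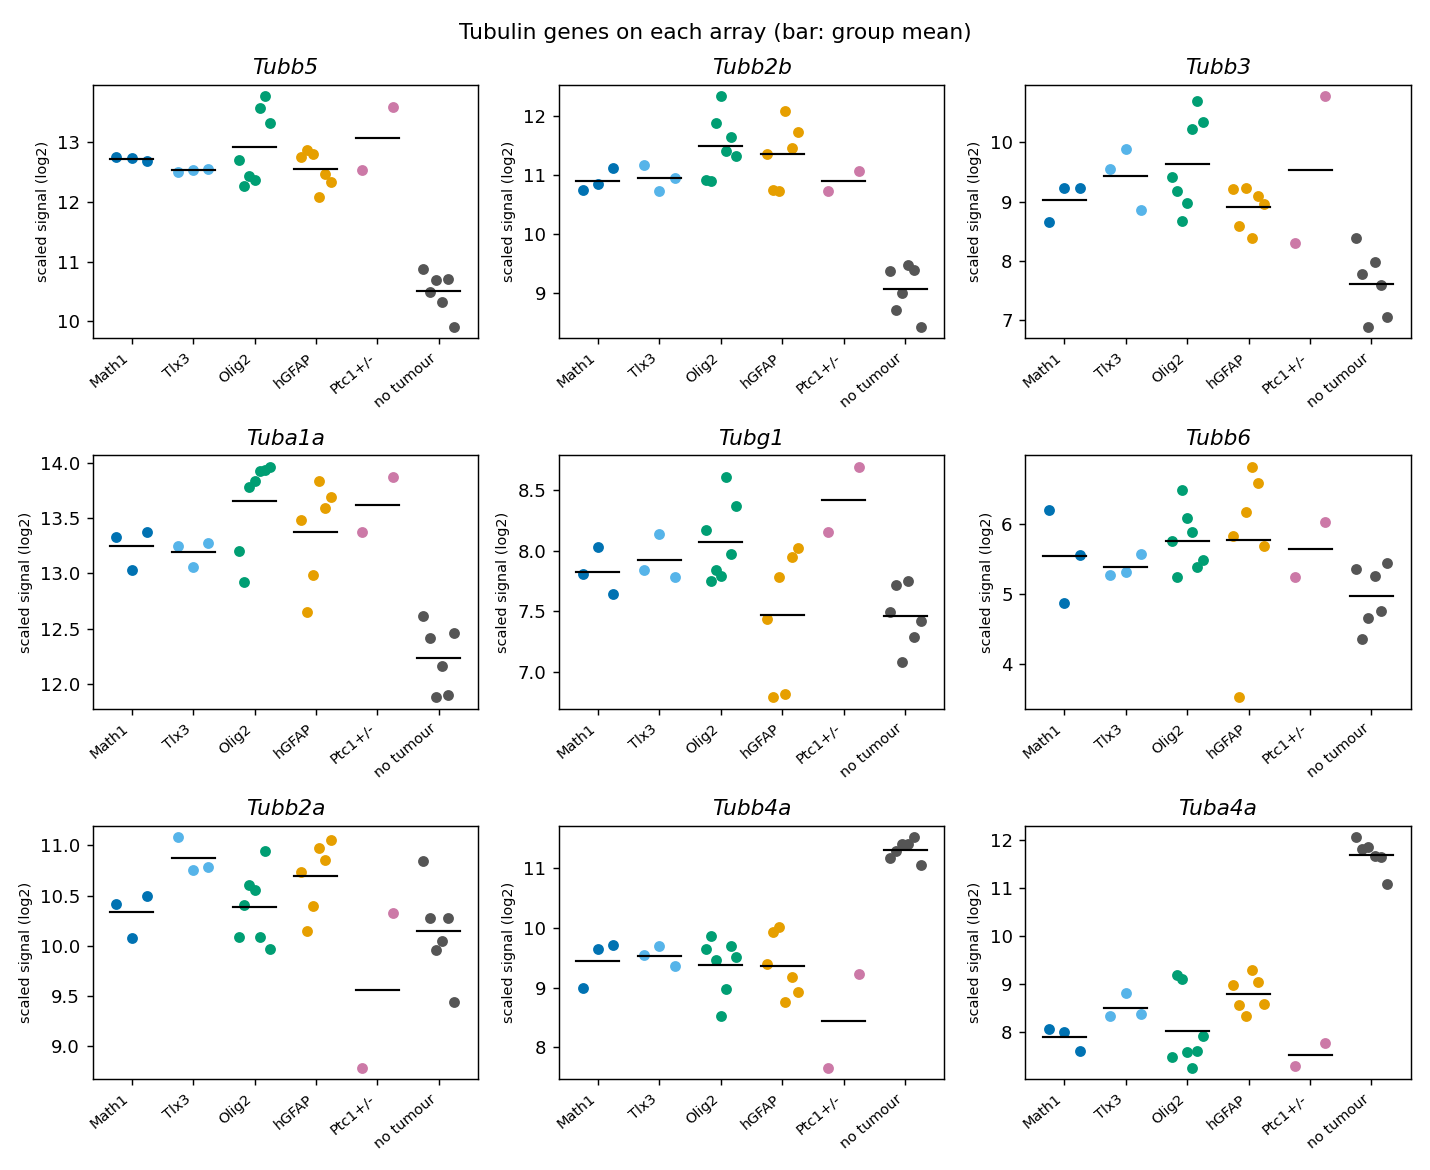
The log2 rescaled signal of each of the 9 tubulin genes on every array is plotted, 1 point per array, for the 5 tumour groups and the tissue without tumour, with a bar at each group mean. In the panels of Tubb5, Tubb2b and Tuba1a all 21 tumour points lie above the 6 control points (8.14% of all genes). In those of Tubb4a and Tuba4a they lie below (9.68% of all genes). In the panel of Tubb3 the first Ptc1+/- point lies among the control points, and in those of Tubb2a, Tubb6 and Tubg1 the groups overlap.

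Each tumour group was then compared with tissue without tumour. These comparisons share the same 6 control arrays, so they are not independent of each other. Tubb5, Tubb2b, Tubb3 and Tuba1a rose and Tuba4a and Tubb4a fell in each of the 5 groups. Of the 9 genes, 6 were called in Math1 tumours (36.2% of all genes), 6 in Tlx3 tumours (38.2%), 7 in Olig2 tumours (48.5%), 6 in hGFAP tumours (40.1%) and 7 in Ptc1+/- tumours (34.6%). The seventh gene in Olig2 and Ptc1+/- tumours was Tubg1.

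The log2 difference of Tubb5 lay between 2.03 in Tlx3 tumours and 2.56 in Ptc1+/- tumours, and that of Tubb2b between 1.84 in Ptc1+/- and 2.43 in Olig2 tumours. The log2 difference of Tubb3 was lowest in hGFAP tumours, at 1.3 (adjusted p = 0.00448), and highest in Olig2 tumours, at 2.03 (adjusted p = 1.55e-05), with 1.42 in Math1, 1.81 in Tlx3 and 1.92 in Ptc1+/- tumours. Its call in Ptc1+/- tumours rested on replicate 2, without which the difference was 0.69 (adjusted p = 0.452, with 1 array left and its spread assumed from the other groups), and its call in Math1 tumours was lost without replicate 2 or replicate 3 (1.33 each, adjusted p = 0.0555 and 0.0557). Tuba1a was between 0.95 higher in Tlx3 and 1.41 higher in Olig2 tumours, but this order turned with the scaling. With quantile normalization it was 0.96 in Tlx3, 0.6 in Olig2 and 0.52 in Ptc1+/- tumours (0.68 over all tumours), and without rescaling 1.33 in Tlx3 and 0.73 in Olig2 tumours. The fall of Tuba4a ran from a log2 difference of -2.89 in hGFAP tumours to -4.16 in Ptc1+/- tumours, and that of Tubb4a from -1.77 in Tlx3 to -2.86 in Ptc1+/- tumours.

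On their brightest probe sets the remaining members moved less. Tubg1 was called in Olig2 tumours (0.61, adjusted p = 0.0171; -0.06 without rescaling) and in Ptc1+/- tumours (0.96, adjusted p = 0.0163; -0.14 without rescaling). It differed by 0.01 in hGFAP tumours (95% interval -0.43 to 0.45), by 0.37 in Math1 and by 0.46 in Tlx3 tumours, none of them called. Its call in Ptc1+/- tumours was lost without replicate 2 (0.69, adjusted p = 0.251, again with 1 array left). Tubb2a was not called in any group on its brighter probe set, with 0.73 in Tlx3 (adjusted p = 0.0503), 0.55 in hGFAP (adjusted p = 0.0669), 0.24 in Olig2, 0.19 in Math1 and -0.59 in Ptc1+/- tumours (adjusted p = 0.190). Its values in Tlx3 and hGFAP tumours lay close to the threshold, since 16 of 46 alternatives called it higher in Tlx3 tumours (0.99, adjusted p = 0.0111 with array medians set equal, and 0.87, adjusted p = 0.02 without control replicate 1) and 9 of 46 in hGFAP tumours (0.69, adjusted p = 0.0235 without control replicate 1). Without Ptc1+/- replicate 2 the value in Ptc1+/- tumours was -1.36 (adjusted p = 0.0107), and without replicate 1 it was 0.19. Each of these Ptc1+/- values rests on 1 array whose spread is assumed from the other groups. Tubb6 was 0.41 to 0.79 higher on its brighter probe set in the 5 groups, with no call, and -0.43 in Ptc1+/- tumours without rescaling. Without hGFAP replicate 2 it was called in hGFAP tumours (1.24, adjusted p = 0.00131) and in Olig2 tumours (0.79, adjusted p = 0.0175), and 5 of 46 alternatives called it in hGFAP and 6 in Olig2 tumours. On its dimmer probe set Tubb2a was called higher in hGFAP (1.22, adjusted p = 0.000810) and in Olig2 tumours (0.64, adjusted p = 0.0495).

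**Figure D2:**
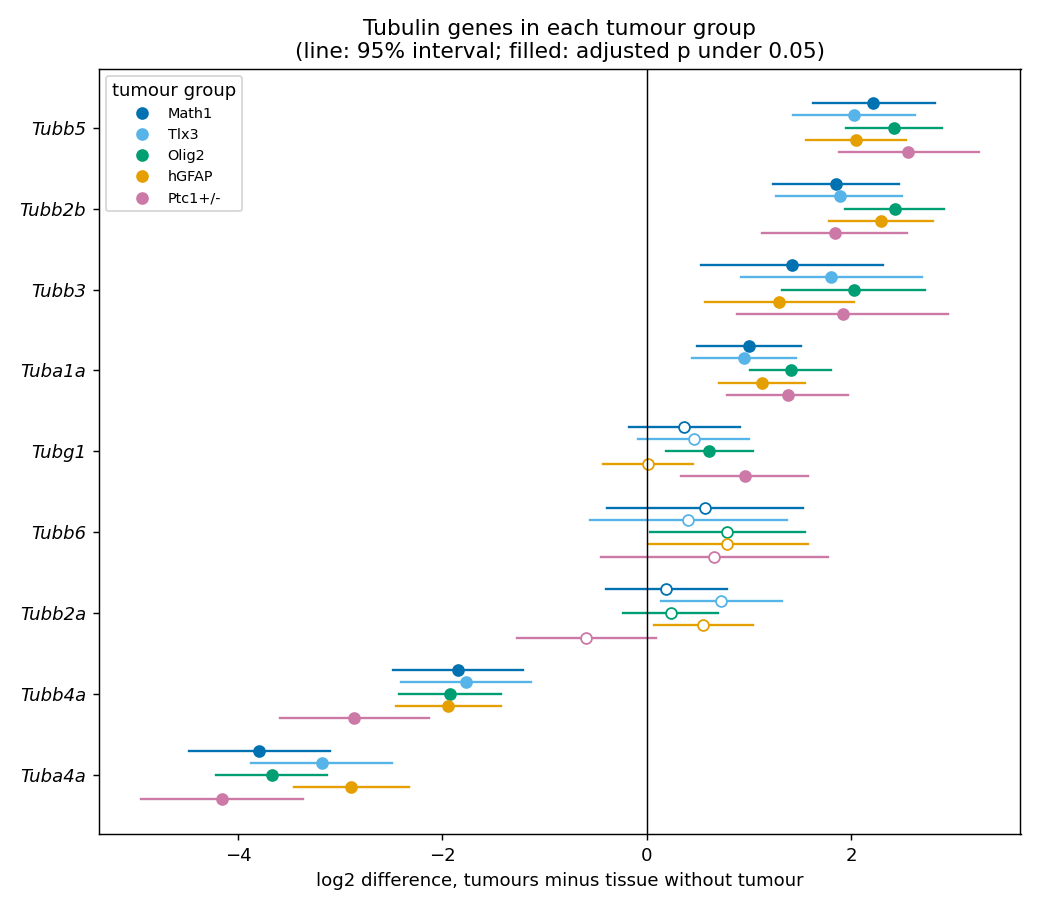
The log2 difference of each tubulin gene, tumours minus tissue without tumour, is plotted for each of the 5 tumour groups, with a line for the 95% interval and a filled point for an adjusted p under 0.05. The 5 points of Tubb5 lie between 2.03 and 2.56 and those of Tuba4a between -4.16 and -2.89, while those of Tubb2a lie on both sides of 0. The points of Tubg1 lie between 0.01 and 0.96, and those of Olig2, hGFAP and Ptc1+/- fall below 0 without rescaling of the arrays.

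Counting all probe sets, 8 of the 14 were called higher and 4 lower over the tumour groups, where 24.4% of all probe sets were called higher and 22.4% lower. The 3 probe sets of Tuba4a and the 2 of Tubb5 gave the same direction and call. The 2 probe sets of Tubb2a and the 2 of Tubb6 had the same direction and differed in their calls. For Tubb5 the second probe set was called in Olig2 (2.37), hGFAP (1.69) and Ptc1+/- tumours (3.31) but missed the threshold in Math1 (1.52, adjusted p = 0.0540) and Tlx3 tumours (1.16, adjusted p = 0.142), where the first gave 2.22 and 2.03. For Tubb6 the probe set with controls at the floor was called in Math1 (2.12), Tlx3 (2.08), Olig2 (2.97) and hGFAP tumours (2.24) and missed the threshold in Ptc1+/- tumours (1.52, adjusted p = 0.0639).

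**Figure D3:**
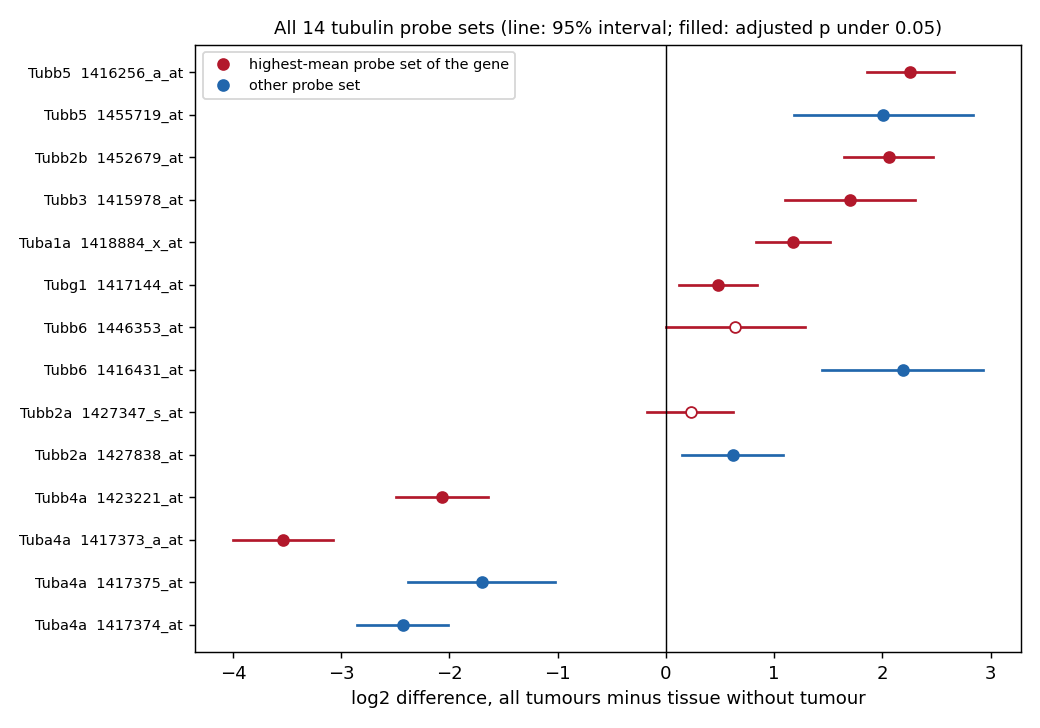
The log2 difference over all tumours, tumours minus tissue without tumour, is plotted for all 14 probe sets with its 95% interval; a filled point has an adjusted p under 0.05. Both Tubb5 points lie above 2 and all 3 Tuba4a points lie below 0, while the first Tubb6 and the first Tubb2a probe set are open points with intervals that reach 0. The first Tubb2a probe set lies below 0 without rescaling of the arrays.

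Pairs of isotypes were compared within each array, where the scaling of the array cancels. The change in the log2 difference between the members of a pair, tumours minus tissue without tumour, says whether they moved unequally and nothing about which is more abundant. It is a mean over the 21 tumour arrays, so its parts differ slightly from the group-weighted values above. Tuba1a over Tuba4a was 4.64 higher in tumours (SD 0.83 in tumours, n = 21, and 0.46 in tissue without tumour, n = 6). Tubb5 over Tubb4a was 4.23 higher (SD 0.64 in tumours and 0.31 in tissue without tumour). Tubb3 over Tubb4a was 3.67 higher (SD 0.74 in tumours and 0.59 in tissue without tumour), and Tubb2b over Tubb2a, a pair with near-identical protein, was 1.86 higher (SD 0.53 in tumours and 0.37 in tissue without tumour). In each of the 4 pairs all 21 tumour arrays lay above all 6 control arrays. An exact permutation test over 296010 assignments of the arrays, two-sided, gave p = 3.38e-06 for each pair, the smallest this design allows, and the same value after Benjamini-Hochberg adjustment over the 4. The pairs were chosen with the direction of their members known, so these p-values describe the separation and do not add to the tests above. For Tuba1a with Tuba4a and for Tubb5 with Tubb4a the full separation was fixed by the values given above. On all 21 tumour arrays 1 member lay above every control array and the other member below. The share of other gene pairs that separate fully was not taken. The planned pair of Tuba1a and Tuba1b could not be formed.

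**Figure D4:**
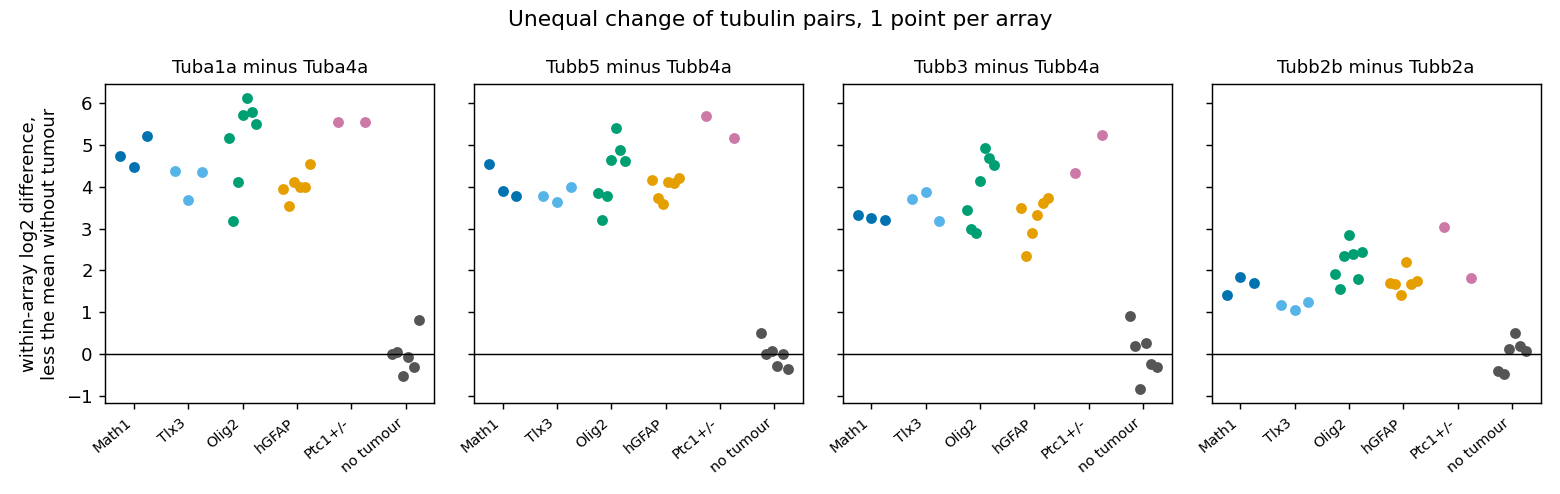
The within-array log2 difference of 4 pairs of tubulin genes, less its mean in tissue without tumour, is plotted with 1 point per array and the groups on the horizontal axis. All 21 tumour points lie above the 6 control points in each panel, with mean changes of 4.64, 4.23, 3.67 and 1.86 from left to right.

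Tumours of different origin were compared with each other on the same model. None of the 9 genes was called among the 4 SmoM2 groups (limma F statistic, 0.591% of all genes called; smallest adjusted p of the 9 0.184, for Tuba4a). None was called in hGFAP and Olig2 tumours against Math1 and Tlx3 tumours (0.0296% of all genes called), where 1 gene, Tubb2b, had an unadjusted p under 0.05, or in Tlx3 against Math1 tumours (0% called), where 0 did. Tubb2b was 0.49 higher in hGFAP and Olig2 tumours (95% interval 0.06 to 0.92, adjusted p = 0.299). For Tubb5 the same difference was 0.11 (95% interval -0.31 to 0.53) and for Tuba4a 0.21 (95% interval -0.27 to 0.69).

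In hGFAP against Olig2 tumours 0 of the 9 genes were called (2.42% of all genes), and 3 had an unadjusted p under 0.05. Tuba4a was 0.78 higher in hGFAP tumours (95% interval 0.24 to 1.32, adjusted p = 0.0881) on its brightest probe set, with 0.1 and 0.03 on its other probe sets (adjusted p = 0.828 and 0.967), and Tubg1 was 0.60 lower (log2 difference -0.60, 95% interval -1.03 to -0.18, adjusted p = 0.0913). Tubb3 had a difference of -0.73 (95% interval -1.43 to -0.03, adjusted p = 0.194). Without Olig2 replicate 2 Tuba4a was called (0.98, adjusted p = 0.0275), and without replicate 3 likewise (0.96, adjusted p = 0.0180), since these 2 arrays had the highest Tuba4a signals of their group, at 9.19 and 9.11.

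In Ptc1+/- against SmoM2 tumours 0 of the 9 genes were called (0.318% of all genes), and 4 had an unadjusted p under 0.05. Tubb2a differed by -1.02 (95% interval -1.65 to -0.39, adjusted p = 0.195), Tubb4a by -0.99 (95% interval -1.66 to -0.32, adjusted p = 0.246), Tuba4a by -0.78 (95% interval -1.51 to -0.05, adjusted p = 0.441) and Tubg1 by 0.60 (95% interval 0.03 to 1.17, adjusted p = 0.449). The other Tuba4a probe sets differed by -0.05 and -0.07. On its dimmer probe set Tubb2a differed by -0.47 (95% interval -1.2 to 0.26, adjusted p = 0.634). The Ptc1+/- arrays were unlike each other, with 8.78 and 10.33 for Tubb2a and 7.66 and 9.23 for Tubb4a. Without Ptc1+/- replicate 2, the dimmer array, Tubb2a was called at -1.80 (adjusted p = 0.0327), a value that rests on 1 Ptc1+/- array assumed to vary like the other groups.

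Markers of cell types moved with the members. Where Tuba4a and Tubb4a fell, markers of mature granule neurons (5 of 5 lower), Purkinje cells (4 of 4 measured), interneurons (3 of 3) and oligodendrocytes (4 of 4 measured) fell too. The mean log2 signal of the mature granule neuron markers was 5.61 to 8.89 on tumour arrays and 10.76 to 11.26 on control arrays, and that of the Purkinje cell markers was 4.27 to 8.36 on tumour arrays and 11.12 to 11.71 on control arrays. The interneuron markers had 4.93 to 8.41 on tumour arrays and 10.55 to 10.86 on control arrays, and the oligodendrocyte markers 4.84 to 7.44 on tumour arrays and 8.58 to 9.43 on control arrays. No marker of these lists was at the floor on every control array, while 1 Purkinje cell marker was in Math1 and in Ptc1+/- tumours and 1 oligodendrocyte marker in Math1 tumours. Astrocyte and Bergmann glia markers fell (5 of 5), at 7.26 to 9.89 on tumour arrays against 10.56 to 11.03 on control arrays. Where Tubb5, Tubb2b, Tubb3 and Tuba1a rose, cell division markers rose (4 of 4), at 9.11 to 11.12 on tumour arrays against 3.92 to 5.85 on control arrays. Of the granule neuron precursor markers 3 of 5 rose, and microglia markers rose (6 of 6), at 8.25 to 9.54 on tumour arrays against 6.25 to 7.27 on control arrays. Of the endothelium and mural markers 2 of 4 fell, and none of the 3 choroid plexus markers was called. Over all genes 26.4% were called higher and 25% lower. Each marker was read on its probe set of highest mean. Of the astrocyte marker Slc1a3, 2 of 6 probe sets had the opposite direction, and of the oligodendrocyte marker Mbp 1 of 8. The part of cell composition in the tubulin differences was not tested.

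Other genes of the tubulin system were read from lists of their roles, each on its probe set of highest mean. Some genes that were called had other probe sets of opposite direction. These were 2 of 3 for Ttll11, called higher, and 2 of 5 for Pafah1b1, called lower, among others. The list genes named below had none. Among 10 other tubulins, 7 had a probe set that passed the filter, of which 1 rose and 2 fell (all genes 26.4% and 25%), with a median difference of -0.24. Tubb4b, a widely expressed beta-tubulin, was 0.74 higher (SE 0.21, adjusted p = 0.00382; not called without rescaling). The gamma-tubulin of the mature brain, Tubg2, fell by 2.48 (log2 difference -2.48, SE 0.27, adjusted p = 8.92e-09) with 6 tumour arrays at the floor, and the alpha-tubulin Tuba8 fell by 2.02 (log2 difference -2.02, SE 0.24, adjusted p = 5.01e-08).

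Of 21 folding cofactors and chaperones, which bring new tubulin to its folded dimer, 11 rose and 3 fell (all genes 26.4% higher, 25% lower), with a median of 0.55. The 2 highest were Cct2, a subunit of the cytosolic chaperonin that folds tubulin and actin (1.39, SE 0.21, adjusted p = 2.13e-06), and Pfdn4, a subunit of prefoldin, which hands new chains to it (1.26, SE 0.19, adjusted p = 1.66e-06). The 2 lowest were Tbcel, a relative of tubulin cofactor E (-0.62, adjusted p = 0.00419), and Arl2, a small GTPase that acts with the cofactors (-0.77, adjusted p = 0.00660). Without rescaling 4 genes of this list were higher in place of 11.

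Of 19 genes of the gamma-tubulin ring and of nucleation, 12 rose and 1 fell (all genes 26.4% higher, 25% lower), with a median of 0.70. The 2 highest were Haus6, a subunit of augmin, which branches spindle microtubules (1.91, SE 0.18, adjusted p = 3.54e-10), and Nedd1, which brings the ring to the centrosome (1.85, SE 0.26, adjusted p = 6.39e-07). The gene that fell was Tubgcp6, a subunit of the ring (-0.81, SE 0.20, adjusted p = 0.00128). Without rescaling 5 genes of the list were higher.

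Of 20 measured genes of tubulin modification, out of 22 listed, 7 rose and 4 fell (all genes 26.4% higher, 25% lower), with a median of -0.06. Without rescaling 3 were higher, and with the mean of a gene's probe sets 7 were lower. The 2 highest were Vash2, a carboxypeptidase that removes the last tyrosine of alpha-tubulin (2.13, SE 0.25, adjusted p = 2.57e-08; 1 control array at the floor), and Svbp, its partner protein (1.35, SE 0.17, adjusted p = 7.29e-08). The 2 lowest were the glutamylases Ttll5 (-2.12, SE 0.21, adjusted p = 1.09e-09) and Ttll7 (-4.37, SE 0.32, adjusted p = 4.55e-12; 3 tumour arrays at the floor). Ttll7 is known to glutamylate beta-tubulin in neurons.

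Of 37 measured microtubule-associated and destabilising proteins, out of 39 listed, 8 rose and 17 fell (all genes 26.4% higher, 25% lower), with a median of -0.34. The 2 highest were Dcx, a microtubule-binding protein of migrating neurons (5.53, SE 0.27, adjusted p = 4.96e-16; 1 control array at the floor), and Kif2c, a kinesin that takes microtubules apart during mitosis (4.97, SE 0.23, adjusted p = 1.83e-16; 4 control arrays at the floor). The 2 lowest were Mapre3, a plus-end binding protein of neurons (-2.46, SE 0.34, adjusted p = 6.39e-07; 2 tumour arrays at the floor), and Tppp, a tubulin polymerising protein of oligodendrocytes (-3.84, SE 0.37, adjusted p = 1.05e-09; 4 tumour arrays at the floor). Over the 5 tumour groups taken singly, 5 to 7 genes of this list rose and 9 to 16 fell, where 34.6% to 48.5% of all genes were called in either direction.

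**Figure D5:**
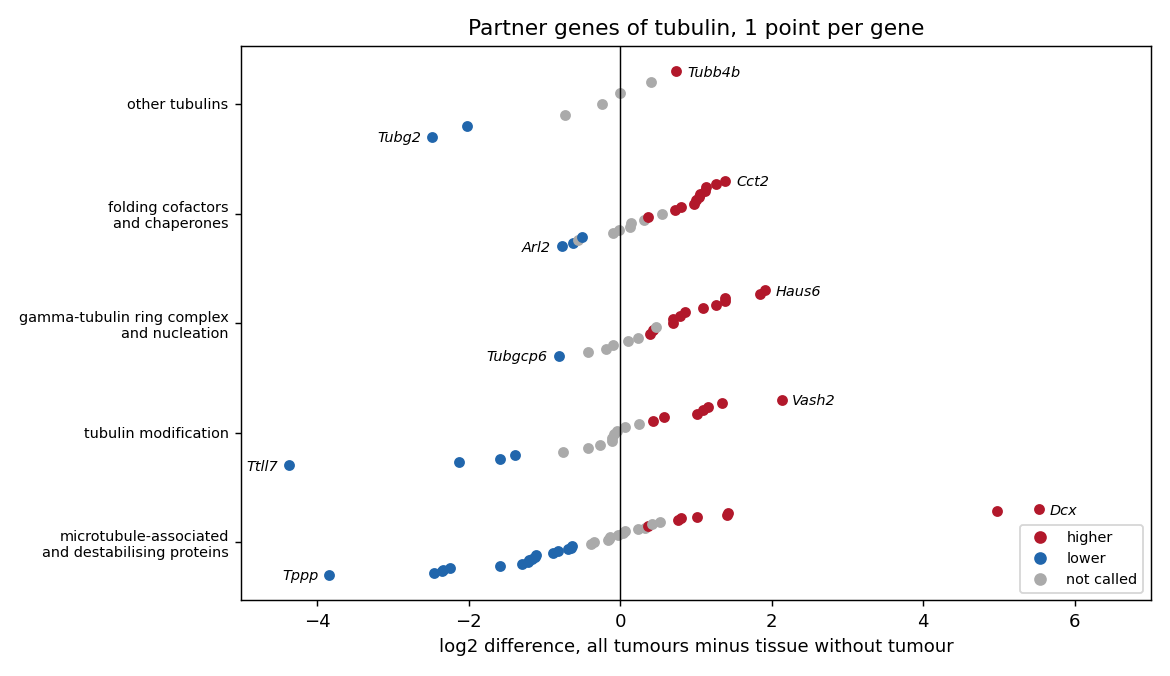
Each point is a gene of 1 of 5 lists of tubulin partners, placed by its log2 difference over all tumours, tumours minus tissue without tumour, and coloured by its call. The chaperone and gamma-tubulin ring lists lie mostly right of 0 (medians 0.55 and 0.70), and the list of microtubule-associated proteins reaches from Tppp at -3.84 to Dcx at 5.53. Without rescaling of the arrays the genes called higher were fewer, at 4, 5 and 4 in these 3 lists.

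Finally, the genes whose signal followed each member most closely over the 27 arrays were listed, as a description, since all arrays of a group share its tissue and the tumours differ from the controls in many genes. Tubb5 was most like Tmsb10 (Pearson r = 0.974), Kctd15 (0.973) and Tmsb4x (0.969), with values of 0.862, 0.854 and 0.914 among the 21 tumour arrays alone. Tuba4a was most like Megf11 and Strip2 (0.984 each) and Syt1 (0.982), where Syt1 encodes a calcium sensor of synaptic vesicles. Tuba1a was most like the ribosomal protein genes Rps28 (0.974), Rps29 (0.958) and Rps18 (0.938). The highest Tuba1a signals were on the 7 dimmest arrays, and the part of rescaling in this likeness was not tested. Tubb4a followed Spock2 (0.960), Pnmal2 (0.956) and the axonal kinesin Kif5a (0.951). Tubb2b followed Nap1l1 (0.944), Macroh2a1 (0.939) and Ezr (0.937), and Tubb3 followed Evl (0.909), Pafah1b3 (0.908) and Eif3d (0.901). The members that moved less had lower values, with Stoml2 at 0.812 for Tubg1, Exosc9 at 0.773 for Tubb6 and Oga at 0.692 for Tubb2a.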

How the data were processed

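Total RNA of 27 samples was hybridised to Affymetrix arrays. The deposited values are linear signal intensity per probe set, which the authors made with MAS5 (per the submitters' processing notes). Its version and target intensity are not given in the sources used here. Detection calls were not used, so low values can be background.

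From these, 2% trimmed means were made equal (common mean 123.61), signals below the 20th percentile (10.3) were raised to it, and log2 was taken. Probe sets above the table median (45.6) on at least 3 arrays were tested. Genes were named through the platform annotation, with 34958 probe sets of 1 gene, 932 of several and 9211 not listed. Each gene was represented by its probe set of highest mean. limma 3.58.1 (R 4.3.3) fitted 1 mean for each of the 6 groups with trend and robust moderation, and two-sided p-values were adjusted by Benjamini-Hochberg over 30107 probe sets. The fit and the permutation test were tested on simulated data. Replicate numbers were not used to pair the samples in the main fit. Correlations of same-numbered arrays across groups ran from -0.36 to 0.26 with a median of 0.05. Those of different-numbered arrays ran from -0.34 to 0.59 with a median of 0. These values cannot tell whether same-numbered samples were handled together.

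The members, pairs and lists were chosen with earlier results of these data known. Named genes were all members, the 2 highest and 2 lowest called genes of each list, and the 3 genes most like each member. Alternatives changed the scaling, floor, filter, probe set, features tested, moderation, array weights, arrays in the model and statistic, added a replicate block, RNA integrity or brightness, and left out arrays.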

Additional observations from a re-analysis of the deposited data

Results flagged for a closer look

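In 42 groups of 4 to 10 arrays, each a probe set of a tubulin gene in a tumour group or in tissue without tumour, the highest and the lowest array were compared with the rest, and chance marks about 1 in 20. On a dimmer probe set of Tuba4a, control replicate 6, the control array of the Ptc1+/- genotype, stood at 8.93 while the other control arrays stood at 9.77 to 10.14. It was also the lowest control array on the brightest Tuba4a probe set, at 11.09. The low place was not particular to Tuba4a. On the brightest probe sets of Tubb2a (9.44), Tubb2b (8.42), Tubb4a (11.05) and Tubb5 (9.91) the same array was the lowest control. On those of Tuba1a, Tubb3, Tubb6 and Tubg1 another control array was lowest. Control replicate 6 also had the lowest trimmed mean of the control arrays, at 117.9. On the probe set of Tubb6 whose other control arrays were at the floor of 3.37, control replicate 2 stood at 4.05. Since those other values are equal, any single array above the floor would be marked there, whatever its value. On the other Tubb6 probe set, hGFAP replicate 2 stood at 3.53, against 5.68 to 6.81 on the other hGFAP arrays, and it was low on both probe sets, at 3.50 on the second.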

How the results depend on the processing

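Signal rather than depth limits these values, since Tubb6 and the third Tuba4a probe set lie near the floor and Tuba1a near the top of the scale. Over 46 alternatives the number of tubulin genes called against tissue without tumour stayed at 6 to 8 for all tumours, and the directions and calls of Tuba4a, Tubb4a, Tubb5, Tubb2b, Tubb3 and Tuba1a over all tumours were kept wherever their probe set was used. Without rescaling, 4 genes were called in Ptc1+/- tumours against tissue without tumour, 4 in hGFAP and Olig2 against Math1 and Tlx3 tumours (Tubb2a, Tubb4a, Tubb5 and Tubg1, all lower) and 2 in Ptc1+/- against SmoM2 tumours (Tubb2a and Tubb4a, both lower). The share of higher calls among all calls over all tumours was then 28.2%, against 52.1% with rescaling. The share of all genes called was not taken for the alternatives. The counts of tubulin genes called under an alternative can therefore not be set against all genes. In Ptc1+/- tumours Tuba1a (0.28, adjusted p = 0.573), Tubb2b (0.74, adjusted p = 0.2) and Tubb3 (0.82, adjusted p = 0.246), and in hGFAP tumours Tuba1a (0.69, adjusted p = 0.0542) and Tubb3 (0.86, adjusted p = 0.110), lost their calls, and Tubb2a was called lower in Ptc1+/- tumours (-1.69, adjusted p = 0.00891). The sign without rescaling turned for Tubb2a over all tumours (-0.12) and in Olig2 (-0.44), for Tubb6 in Ptc1+/- (-0.43), and for Tubg1 in Olig2 (-0.06), Ptc1+/- (-0.14) and hGFAP tumours (-0.43). Tubg1 in hGFAP tumours, near 0, also turned with equal medians (-0.12), quantile normalization (-0.02), brightness as a covariate (-0.03) and in 5 of the fits that left out 1 array, over which it ran from -0.10 to 0.14. Tubb2a in Ptc1+/- tumours turned without _s_at and _x_at probe sets (0.24) and ranged from -1.36 to 0.19 when each array was left out, with the positive value without Ptc1+/- replicate 1. Without the 5 arrays of highest 3′ over 5′ ratio, 2 genes were called in hGFAP against Olig2 tumours (Tuba4a and Tubg1), and without the 7 dimmest arrays, which leaves 1 Ptc1+/- array, 2 in Ptc1+/- against SmoM2 tumours (Tubb2a and Tubb4a). Leaving out each array gave 0 to 1 in both comparisons. With brightness as a covariate or without the dimmest arrays, Tubg1 lost its calls in Olig2 (0.56 and 0.50) and Ptc1+/- tumours (0.87 and 0.69), and Tubb3 lost its call in Ptc1+/- tumours (1.51 and 0.69). The replicate block changed 1 tubulin call over all tumours, Tubb6 (0.84, adjusted p = 0.0265), and no other member call against tissue without tumour. Tubb6 over all tumours was also called with the mean of its probe sets (1.42, adjusted p = 0.000259), a floor at the 40th percentile (0.87), array weights (0.69), the 3′ over 5′ ratio as a covariate (0.74) and the filter at 14 arrays (2.19, where the other probe set stands for the gene). The cause of these changes was not tested.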
